A study of Rattus norvegicus with 9 samples.

Results

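The genes described here are the components, regulators and receptors of the complement system in the rat spinal cord after contusion. They were taken by symbol from a list of 39 genes, with no threshold on measured values, and the list was drawn up with earlier results of these data known. A row under the symbol was found for 33 of the 39 among the 30507 rows of the count table, and C2, Colec11, C5ar1, Cr1l, Cd59 and Itgam were not analysed here. The RNA came from whole T9 to T11 cord of female Sprague-Dawley rats, bought at 8 weeks of age, perfused with saline and killed at 35 days post-injury (dpi). Each of 3 groups had 3 rats and 1 library per rat, numbered 1 to 3. The Sham group had a laminectomy without contusion (the labels list no treatment), the SCI group had a contusion at T10 and no electrode, and the SCI + SCS group had the same contusion, an epidural electrode and stimulation at 10 kHz (high-frequency spinal cord stimulation, HF-SCS) for 2 h per day from 1 dpi. The effect of the implanted electrode and that of the current cannot be told apart in these libraries, because the group with an electrode and no current was not analysed here.

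Complement is a cascade of proteins that tags material for removal and can open pores in membranes. The classical pathway starts when C1q binds a target and switches on its partner proteases C1r and C1s, the lectin pathway starts with collectins and the MASP proteases, and the alternative pathway amplifies through factors B and D. All routes cleave C3 and then C5, the terminal components C6 to C9 assemble into the pore, and regulators on cells and in fluid hold the cascade in check. In the central nervous system microglia and macrophages are the main source of C1q, astrocytes and other cells make further components, and C1q and C3 are known for tagging synapses and myelin debris.

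Between 62844376 and 88358570 counts per library fell on genes, so 3 counts, taken as the smallest level the depth can show, were 0.0341 to 0.0472 CPM (counts per 1e+06 library counts, scaled by TMM over the 9 libraries). These limits cover counting error only. Markers of the labelled tissue were present in every library. The summed CPM of 6 oligodendrocyte markers was 17100 to 81800, that of 6 astrocyte markers 3660 to 11700 and that of 6 neuron markers 232 to 2660. Markers of skeletal muscle stood at 3400 and 965 CPM in SCI 1 and SCI 3, and at 46 CPM or less in the other 7 libraries. The 5 hepatocyte markers in the files, which mark the liver as the main source of complement in plasma, summed to only 2.16 to 3.75 CPM in any library. All libraries carry the same sequencing batch label.

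The DNA just before the start of 4 genes is shown because they illustrate limits and patterns that recur below. C4a and C4b are neighbouring copies whose reads may be hard to separate. C1qa and C1qb lie on either side of C1qc, and their RNA levels moved side by side. Of the 33 members, 22 had an entry in the RefSeq promoter table (build GRCr8, whereas the submitters' processing notes name mRatBN7.2). The 250 bases before each start are given on the strand of the gene. In the C4 pair, capitals mark the bases that differ from the other copy in an alignment of the pair.
C4a, chr20:4010107-4010356, plus strand: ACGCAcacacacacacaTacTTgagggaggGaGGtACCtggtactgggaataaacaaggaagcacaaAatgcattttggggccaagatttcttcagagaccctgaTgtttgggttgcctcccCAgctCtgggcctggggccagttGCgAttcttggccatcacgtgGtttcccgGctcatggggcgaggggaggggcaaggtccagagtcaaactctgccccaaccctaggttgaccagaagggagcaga
C4b, chr20:4201729-4201978, plus strand: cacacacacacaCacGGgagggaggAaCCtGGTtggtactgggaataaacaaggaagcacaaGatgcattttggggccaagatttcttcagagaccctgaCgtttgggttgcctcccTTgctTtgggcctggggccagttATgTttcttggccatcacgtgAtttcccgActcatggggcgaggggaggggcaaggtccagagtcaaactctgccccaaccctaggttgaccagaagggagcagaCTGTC
The C4 windows were identical at 226 of 250 bases (90.4%), with 19 mismatches and 10 gap positions. In the C1q pair, capitals mark the letters TTCNNNGAA, the core of a STAT (GAS) site.
C1qa, chr5:154419934-154420183, minus strand: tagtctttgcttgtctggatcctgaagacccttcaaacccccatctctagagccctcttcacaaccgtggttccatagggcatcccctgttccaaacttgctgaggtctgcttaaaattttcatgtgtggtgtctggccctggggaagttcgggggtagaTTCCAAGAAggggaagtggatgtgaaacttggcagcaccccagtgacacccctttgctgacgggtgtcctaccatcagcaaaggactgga
C1qb, chr5:154407828-154408077, minus strand: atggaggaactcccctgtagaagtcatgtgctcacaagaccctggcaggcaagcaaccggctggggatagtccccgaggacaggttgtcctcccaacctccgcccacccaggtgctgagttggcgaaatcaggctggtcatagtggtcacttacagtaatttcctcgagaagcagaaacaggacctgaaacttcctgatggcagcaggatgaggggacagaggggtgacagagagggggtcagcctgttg
The C1q windows matched at 124 of 250 bases (49.6%). The GAS letters of C1qa lie 90 to 82 bases before the start, and C1qb holds none of the 6 motifs searched.

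Motifs were searched on both strands in the 22 windows and in the 33469 windows of the whole table. AP-1 letters (TGANTCA) were found in 5 of the 22 members, C5ar2, Itgax, C3ar1, Cd46 and Cfp, and in 6.34% of all windows. GAS letters were found in 4 members, C5ar2, C8a, C1qa and Vsig4, and in 7.67% of all windows. PU.1 letters (GAGGAAG) were in 2 members (10.2% of all windows) and C/EBP letters (TTGCNNCAA) in C6 only (1.75%). The NF-κB letters, GGGA and TTCC around any 2 bases (1.08% of all windows), and TATAAA (12.9%) were in none of the 22. These matches describe letters in a short window, and the 4 with GAS letters include C8a, which had no counts in any library.

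Genes were ordered by level on the FPKM scale, the authors' counts scaled by gene length and library total. In the SCI group Clu (clusterin, a secreted chaperone that keeps the terminal complex from membranes) had the highest mean, 1650 FPKM, followed by C1qa at 514, C1qb at 316, Serping1 (the C1 inhibitor, which blocks C1r and C1s) at 268 and C1qc at 255 FPKM. At the other end Cfi had a mean of 0.483 FPKM and C9 one of 0.401 FPKM in the SCI group, and Vsig4, C5, Cr2, C8b and C8a were lower still. C1qa was above C1qb in every SCI library, and C1qb was above C1qc in the same way, but the range of Serping1 overlapped those of C1qb and C1qc, so its place between them is within the spread. The order in Sham cord was different, with Clu first at 670 FPKM and Cd59b, an inhibitor of pore assembly, next at 84.8 FPKM, then C1qa at 67.0 FPKM, with overlapping ranges. In the SCI + SCS group Clu (1610 FPKM) was again followed by C1qa (418) and C1qb (265 FPKM). C1qc at 172 and Serping1 at 163 FPKM had overlapping libraries there too. C8a was at 0 counts in every library, which allows up to 3 counts in each. C8b had 7 counts in Sham 2 and none elsewhere, and Cr2, the B cell receptor for C3 fragments, had at most 5 counts in a library. These 3 genes entered no test.

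**Figure D1:**
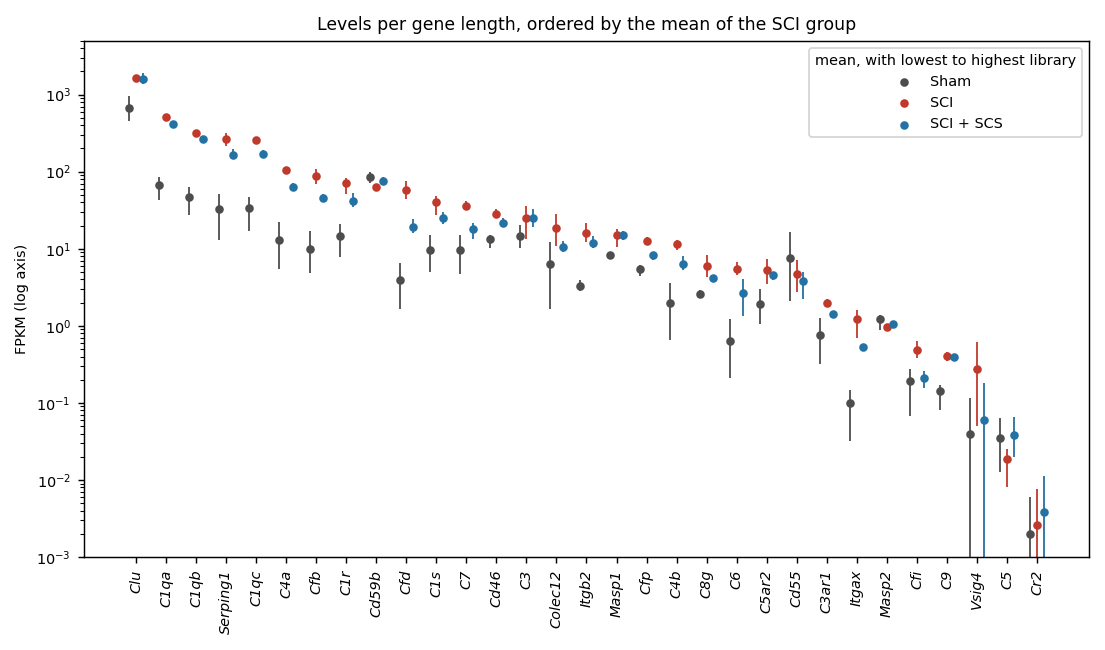
Mean FPKM (log axis) of each complement gene with a mean above 0 in all 3 groups, with lines from the lowest to the highest library and lines that reach the lower edge where a library was at 0. Clu leads in all groups at 670, 1650 and 1610 FPKM, and C5 and Cr2 stand at the low end.

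The first comparison, SCI with Sham, asked how complement transcripts stood 35 days after contusion. A gene was called when its |log2FC| was over 1 and its p from edgeR (quasi-likelihood), adjusted by Benjamini-Hochberg over all genes, was under 0.05. Of the 30 members with enough counts to test, 20 were called higher in the SCI group and 0 lower, while 13.4% of all 17822 rows tested were called higher and 13.6% lower. The median log2FC was 1.70 over the members and 0.02 over all rows. In 23 members every SCI library was above every Sham library, against 32.6% of all rows, and in 1 member, Cd59b, every SCI library was below, against 31% of all rows. Without the fold threshold 22 members were higher and 1 lower, against 24.3% and 25% of all rows. In whole tissue, more cells of a type and more RNA per cell cannot be told apart.

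All 5 starters of the classical pathway rose. C1qa, a chain of the recognition protein C1q, was at 58.1, 94.1 and 115 CPM in Sham and at 804, 682 and 571 CPM in SCI. The lowest SCI library was thus well above the highest Sham library, and the fold was 7.62 (log2FC 2.93 ± 0.28 SE, edgeR adjusted p = 0.00129). The other C1q chains behaved likewise, with C1qb at 37.6, 67.1 and 85.8 CPM in Sham and 487, 433 and 375 CPM in SCI (log2FC 2.75 ± 0.31, edgeR adjusted p = 0.00164). C1qc went from 28.6, 59.0 and 79.2 CPM to 508, 365 and 417 CPM (log2FC 2.93 ± 0.37, edgeR adjusted p = 0.00213). These 3 genes lie next to each other on the minus strand of chromosome 5 (mRatBN7.2, 149118846 to 149136534), 3008 and 2619 bases apart, and the ratio of C1qb to C1qa in raw counts, not per length, stayed between 0.588 and 0.747 in the 9 libraries. The proteases C1r and C1s, neighbours on chromosome 4, rose by log2FC 2.28 ± 0.35 and 2.03 ± 0.40. C1r stood at 27.3, 48.9 and 71.9 CPM in Sham and at 198, 267 and 261 CPM in SCI, with no overlap.

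None of the 3 lectin pathway members tested was called. Masp1, a protease of this pathway, was at 23.4, 25.4 and 28.1 CPM in Sham and at 55.5, 54.2 and 35.1 CPM in SCI. All SCI libraries were higher and the edgeR adjusted p was 0.01, but the log2FC of 0.89 ± 0.19 was under the threshold for a call. Masp2, the protease that cleaves C4 and C2, had a log2FC of -0.31 ± 0.24 with overlapping libraries. Colec12, a membrane collectin, had a log2FC of 1.51 ± 0.68 (edgeR adjusted p = 0.104) and ranged from 6.07 to 44.1 CPM within Sham alone.

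Among the central components, C4 rose and C3 did not pass. C4a, which with C4b encodes the protein that C1s cleaves, was at 37.5, 74.5 and 148 CPM in Sham and at 757, 696 and 649 CPM in SCI (log2FC 3.0 ± 0.48, 8-fold, edgeR adjusted p = 0.00369). C4b was at 4.51, 10.3 and 24.2 CPM against 71.6, 82.4 and 77.3 CPM (log2FC 2.55 ± 0.56). The transcripts of the copies were not compared here, and the split of reads between them is uncertain. The ratio of C4a to C4b in raw counts, not per length, was 6.12 to 11.4 over the 9 libraries. C3, on which all pathways meet, was at 66.5, 80.3 and 131 CPM in Sham and at 260, 160 and 83.3 CPM in SCI. The groups overlapped through SCI 3, and the log2FC of 0.84 ± 0.44 did not pass (edgeR adjusted p = 0.152). C5, the source of the pore-starting fragment, was near the limit of detection at 0.0634 to 0.432 CPM and had a log2FC of -0.91 ± 0.69.

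All 3 alternative pathway genes rose, and Cfd (factor D, the protease that activates factor B) had the highest log2FC of the members. Its gene lies on chromosome 7 (mRatBN7.2, 9813150 to 9815053, minus strand), and its level was 2.17, 4.58 and 8.32 CPM in Sham and 63.0, 91.0 and 67.3 CPM in SCI, a 14.5-fold difference (log2FC 3.86 ± 0.49, edgeR adjusted p = 0.00209). Cfb (factor B) was at 16.2, 26.7 and 54.5 CPM against 249, 272 and 331 CPM (log2FC 3.11 ± 0.44, edgeR adjusted p = 0.00276). Neither gene had overlapping groups. The table holds Cfb on 2 rows of the same identifier. The row used had 1031, 2347 and 4761 raw counts in Sham and 19595, 19160 and 22933 in SCI. The second row had 849, 1388 and 2243 raw counts in Sham and 3649, 3804 and 5591 in SCI, a smaller rise, and its fold is not given here. Cfp (properdin, which stabilizes the C3-cleaving enzyme) differed less, at 8.63 to 11.5 CPM against 23.3 to 25.7 CPM (log2FC 1.20 ± 0.14, edgeR adjusted p = 0.00174). Cfd is also made by fat cells. The 7 adipocyte markers summed to 43.6 to 47.2 CPM in Sham, 59.6 to 63.1 CPM in SCI and 45.7 to 52.1 CPM in SCI + SCS. Lipe had the highest level of the 7 in Sham and in SCI + SCS, at 42.5 to 45.9 and 38.2 to 39.0 CPM, and was at 26.6 to 34.3 CPM in SCI. Fabp4, at 0.172 to 0.409, 23.1 to 33.8 and 6.47 to 12.1 CPM, and Pparg, at 0.424 to 0.675, 1.64 to 2.17 and 0.709 to 1.11 CPM, were called higher in SCI against Sham by edgeR and lower in SCI + SCS against SCI by DESeq2. Adipoq, Plin1 and Cidec were at 0.355 CPM or less in every library and Lep was at 0 throughout. The part of fat cells in the level of Cfd was not tested.

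The terminal components that could be tested all rose, with C6 first. C6 was at 0.802, 1.87 and 4.53 CPM in Sham and at 19.0, 24.1 and 18.4 CPM in SCI (log2FC 3.07 ± 0.59, 8.41-fold, edgeR adjusted p = 0.00662). C7, which anchors the growing pore in the membrane and is typed as a pseudogene in the file, was at 25.8, 49.2 and 80.8 CPM against 196, 175 and 214 CPM (log2FC 1.89 ± 0.38). C9, the pore-forming subunit, was scarce, at 0.216 to 0.487 CPM in Sham and 0.908 to 1.19 CPM in SCI (log2FC 1.47 ± 0.40). C8g had a log2FC of 1.02 ± 0.23, at the edge of the threshold. Its partners C8a and C8b had no counts in any SCI library, so the pore genes were not all detectable at this depth.

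The regulators moved in different directions. Serping1 was at 29.8, 71.8 and 114 CPM in Sham and at 532, 585 and 670 CPM in SCI (log2FC 3.03 ± 0.47, edgeR adjusted p = 0.00327). Clu was at 1020, 1260 and 2120 CPM against 4250, 3250 and 3500 CPM (log2FC 1.30 ± 0.29, edgeR adjusted p = 0.0116). Both are secreted inhibitors, and both rose with no overlap between groups. The membrane regulators differed less or fell. Cd46, a cofactor for the breakdown of C3b, was at 31.7 to 45.5 CPM in Sham and 73.3 to 82.1 CPM in SCI, with a log2FC just under 1 (0.996 ± 0.14, edgeR adjusted p = 0.00287). Cd59b fell by 0.49 ± 0.15 on the log2 scale (edgeR adjusted p = 0.0373, without the fold threshold), from 367, 294 and 250 CPM to 219, 221 and 219 CPM. Cd55, which takes apart the C3-cleaving enzyme, was at 6.73, 54.6 and 14.9 CPM in Sham and at 10.8, 13.8 and 22.5 CPM in SCI. Sham 2 stood apart, and the log2FC went from -0.71 to 0.52 without it. Cfi (factor I, the protease that inactivates C3b and C4b) had a log2FC of 1.30 ± 0.53 and missed the threshold (edgeR adjusted p = 0.0799).

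Of the 5 receptors tested, 4 rose. Itgax, a chain of the receptor for inactivated C3b, was at 0.204, 0.704 and 0.915 CPM in Sham and at 4.82, 9.49 and 8.31 CPM in SCI (log2FC 3.60 ± 0.56, 12.1-fold, edgeR adjusted p = 0.00346). Itgb2, the partner chain, was at 12.3, 10.9 and 15.6 CPM against 53.9, 79.2 and 52.7 CPM (log2FC 2.24 ± 0.22, edgeR adjusted p = 0.00135). C3ar1 and C5ar2, receptors for the fragments C3a and C5a, rose by log2FC 1.36 ± 0.42 and 1.51 ± 0.40. Vsig4, a macrophage receptor for C3 fragments, was at 0.317, 1.02 and 0.0867 CPM in SCI with wide spread and was not called (edgeR adjusted p = 0.137).

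Some calls were lost or gained when 1 library was left out. The count of members called higher ran from 17 to 22 when each library was left out in turn, and the share of all rows called in these fits is not given here. C3ar1 lost its call without Sham 2 or without any 1 of the SCI libraries (edgeR adjusted p 0.0778 to 0.106), while its log2FC stayed at 1.30 to 1.40 with fewer samples in the fit. C9 lost it without Sham 2, SCI 1 or SCI 3 (0.0556 to 0.0689), C5ar2 without Sham 2 or SCI 3 (0.0751 and 0.0708) and Clu without Sham 2 (0.0525). C8g fell under the fold threshold without Sham 1 or SCI 3 (log2FC 0.97 and 0.72), and without Sham 2 its log2FC was 0.97. Calls were gained by Cd46 without Sham 2, Sham 3 or SCI 1 (log2FC 1.0 to 1.11), Colec12 without Sham 3 (2.40), Masp1 without SCI 3 (1.07) and Vsig4 without Sham 2 (edgeR adjusted p = 0.0434), which left 1 count of it in Sham. Muscle markers were at 7.09 CPM in SCI 2, against 3400 and 965 CPM in SCI 1 and SCI 3. SCI 2 was the highest of its group in 10 of 30 members (33.3%), among them Cfd, C6 and Itgax, close to the 32.9% of all rows. It was the lowest in 6 (20%), among them C7, against 28.4% of all rows. The part of muscle in these levels was not tested.

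**Figure D2:**
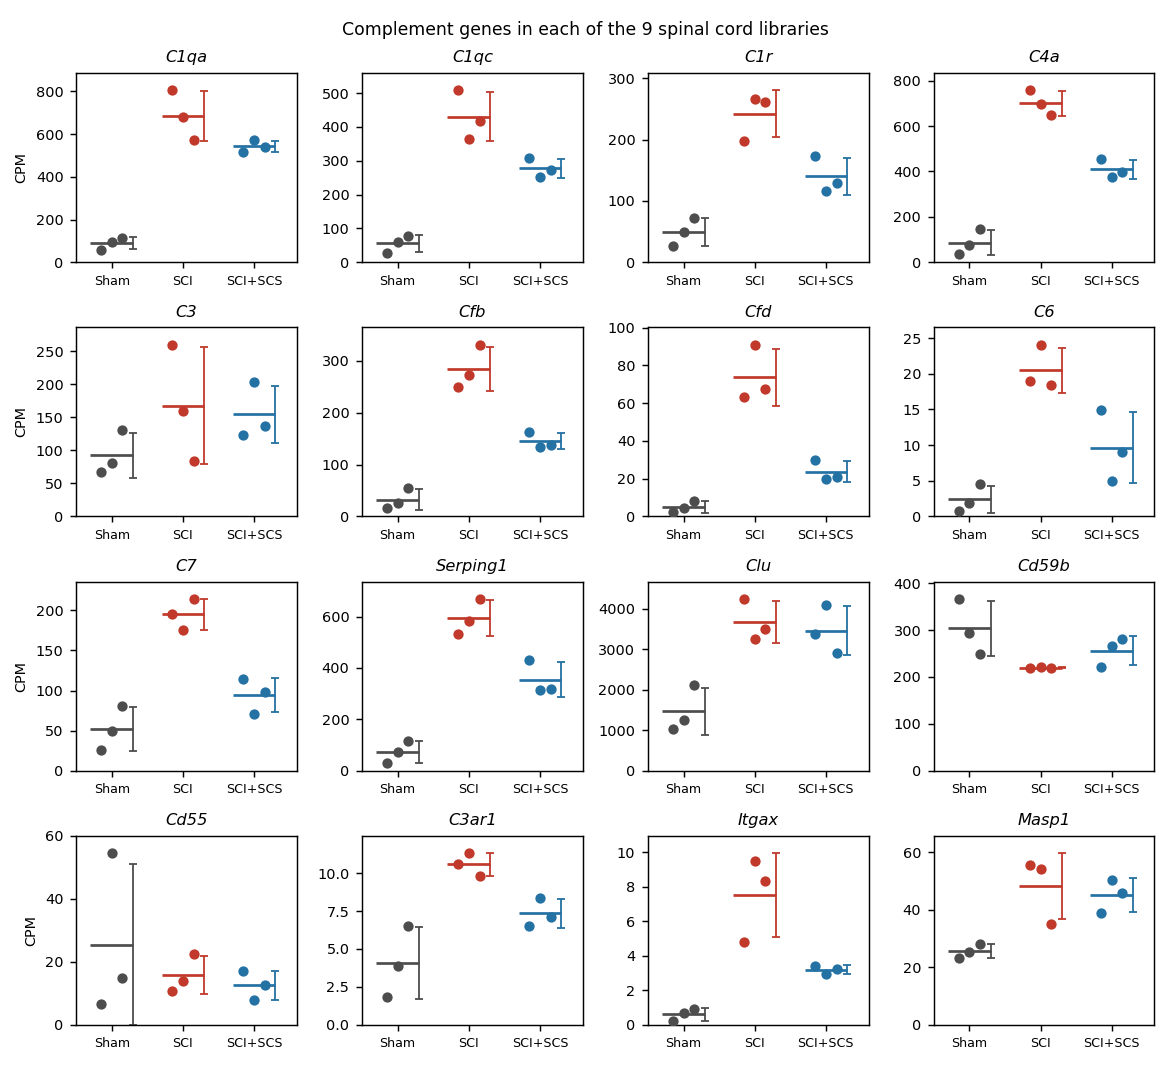
CPM of 16 complement genes in each library, with replicates 1 to 3 from left to right, the group mean as a line and the SD as a bar (n = 3). C1qa, C4a, Cfb, Cfd and Serping1 are separated between Sham and SCI, whereas C3 and Cd55 overlap.

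The second comparison, SCI + SCS with SCI, asked how stimulated and unstimulated injured cords differed. By edgeR 0 of 30 members were called in either direction, against 1 of all 17663 rows higher (0.00566%) and 0 lower (0%). The smallest edgeR adjusted p of a member was 0.0719. At an unadjusted p under 0.05, 18 members were lower after stimulation and 0 higher, against 10.9% of all rows lower and 13.3% higher. With a |log2FC| over 1 as well, 5 members were lower, against 2.56% of all rows. The log2FC was below 0 for 27 of 30 members, and its median was -0.58 over the members and -0.01 over all rows. In 16 members every SCI + SCS library was below every SCI library, against 13.9% of all rows, and in 1, Cd59b, every library was above, against 15.7%. DESeq2, the test named in the study's methods, called 5 members lower and 0 higher, against 2.14% of the rows it tested called lower and 2.53% higher, and limma on log2(FPKM + 1) and on log2(FPKM + 0.1) called 0. Without the fold threshold, 16 members were lower and 0 higher at a DESeq2 adjusted p under 0.05. Of the 17663 rows tested by edgeR, 1123 were lower and 1456 higher in this way. Thus most members had a negative log2FC, and whether any was called depended on the test.

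The 5 genes called by DESeq2 were Cfd, Itgax, Cfi, C6 and C7. Cfd had the smallest p in both tests, at 63.0, 91.0 and 67.3 CPM in SCI and at 30.1, 19.8 and 21.1 CPM in SCI + SCS. The highest stimulated library was thus far below the lowest SCI library, and the log2FC was -1.63 ± 0.21 (edgeR adjusted p = 0.0719, DESeq2 adjusted p = 4.42e-11). Itgax went from 4.82, 9.49 and 8.31 CPM to 3.42, 2.92 and 3.26 CPM (edgeR log2FC -1.23 ± 0.27, edgeR adjusted p = 0.0833, DESeq2 adjusted p = 0.000541). C7 was at 196, 175 and 214 CPM against 114, 71.1 and 98.0 CPM (edgeR log2FC -1.04 ± 0.18, edgeR adjusted p = 0.0719, DESeq2 adjusted p = 6.29e-06). None of the 3 had overlapping groups. C6 was at 14.9, 5.02 and 9.07 CPM in SCI + SCS, a wide spread, and its edgeR log2FC was -1.08 ± 0.36 (edgeR adjusted p = 0.141, DESeq2 adjusted p = 0.0189). Cfi was at 1.75, 1.32 and 2.17 CPM in SCI and at 0.912, 0.567 and 0.799 CPM in SCI + SCS (edgeR log2FC -1.19 ± 0.31, edgeR adjusted p = 0.0989, DESeq2 adjusted p = 0.0117).

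The classical starters were not equally low. C1r was at 174, 117 and 129 CPM in SCI + SCS, below all SCI libraries, with a log2FC of -0.78 ± 0.18 (edgeR adjusted p = 0.0892). C1s had a log2FC of -0.68 ± 0.19 and C1qc one of -0.62 ± 0.15, again without overlap. C1qa, at 516, 571 and 539 CPM, touched the SCI range at 571 CPM, and its log2FC was -0.33 ± 0.14 (edgeR adjusted p = 0.204). C1qb had a log2FC of -0.29 ± 0.13 and overlapped as well. C4a was at 457, 374 and 398 CPM (log2FC -0.77 ± 0.11) and C4b at 51.8, 36.9 and 34.9 CPM (log2FC -0.90 ± 0.16). Both were below all SCI libraries, with edgeR adjusted p of 0.0719 and 0.0721. Their DESeq2 adjusted p were 8.45e-08 and 2.93e-05, and only the fold threshold kept DESeq2 from calling them.

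In the alternative pathway Cfb was at 163, 134 and 138 CPM in SCI + SCS (log2FC -0.96 ± 0.14, edgeR adjusted p = 0.0719) and Cfp at 16.2, 13.1 and 16.1 CPM (log2FC -0.66 ± 0.11, edgeR adjusted p = 0.0719). Both were below every SCI library, and both missed only the fold threshold in DESeq2 (DESeq2 adjusted p = 8.45e-08 and 8.31e-05). The second row of Cfb had 2934, 2272 and 2067 raw counts in SCI + SCS, against 3649, 3804 and 5591 in SCI. Of the regulators, Serping1 was at 432, 315 and 317 CPM (log2FC -0.74 ± 0.16, edgeR adjusted p = 0.0833) and Cd46 had a log2FC of -0.40 ± 0.10. Clu, the most abundant member, was at 3370, 4100 and 2920 CPM, across the SCI range, with a log2FC of -0.07 ± 0.18. C3 was at 123, 204 and 137 CPM (log2FC -0.11 ± 0.40), inside its SCI range, and C9 had a log2FC of -0.07 ± 0.25. Masp1, Masp2 and C5ar2 also overlapped between groups, with log2FC of -0.09 ± 0.19, 0.07 ± 0.17 and -0.23 ± 0.21. Of the others, Colec12, C8g and Itgb2 had log2FC of -0.85 ± 0.29, -0.54 ± 0.22 and -0.43 ± 0.20, and Cd55 one of -0.32 ± 0.35. C5 had a log2FC of 0.99 ± 0.63 at low counts, which was 0.38 without SCI + SCS 3 and 0.64 without SCI 1. That of Vsig4 was -2.16 ± 1.43, and it was -0.95 without SCI 2. SCI + SCS 1 was the only library of its group with counts of Vsig4, so no fold is given without it. Cd59b was the member that stood above SCI in all libraries, at 222, 267 and 280 CPM against 219 to 221 CPM (log2FC 0.23 ± 0.11, edgeR adjusted p = 0.233). The receptor C3ar1 was at 6.54, 8.37 and 7.13 CPM, below every SCI library (log2FC -0.51 ± 0.15, edgeR adjusted p = 0.108).

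SCI + SCS 1 had the highest level of its group in 19 of the 30 members (63.3%, against 36.8% of all rows). When it was left out, edgeR called 3 members lower, C4b, Cfb and Cfd (log2FC -1.09, -1.05 and -1.84, adjusted p = 0.0499 each), and 44 of all rows. Leaving out any other library of this comparison gave 0 calls among the members.

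**Figure D3:**
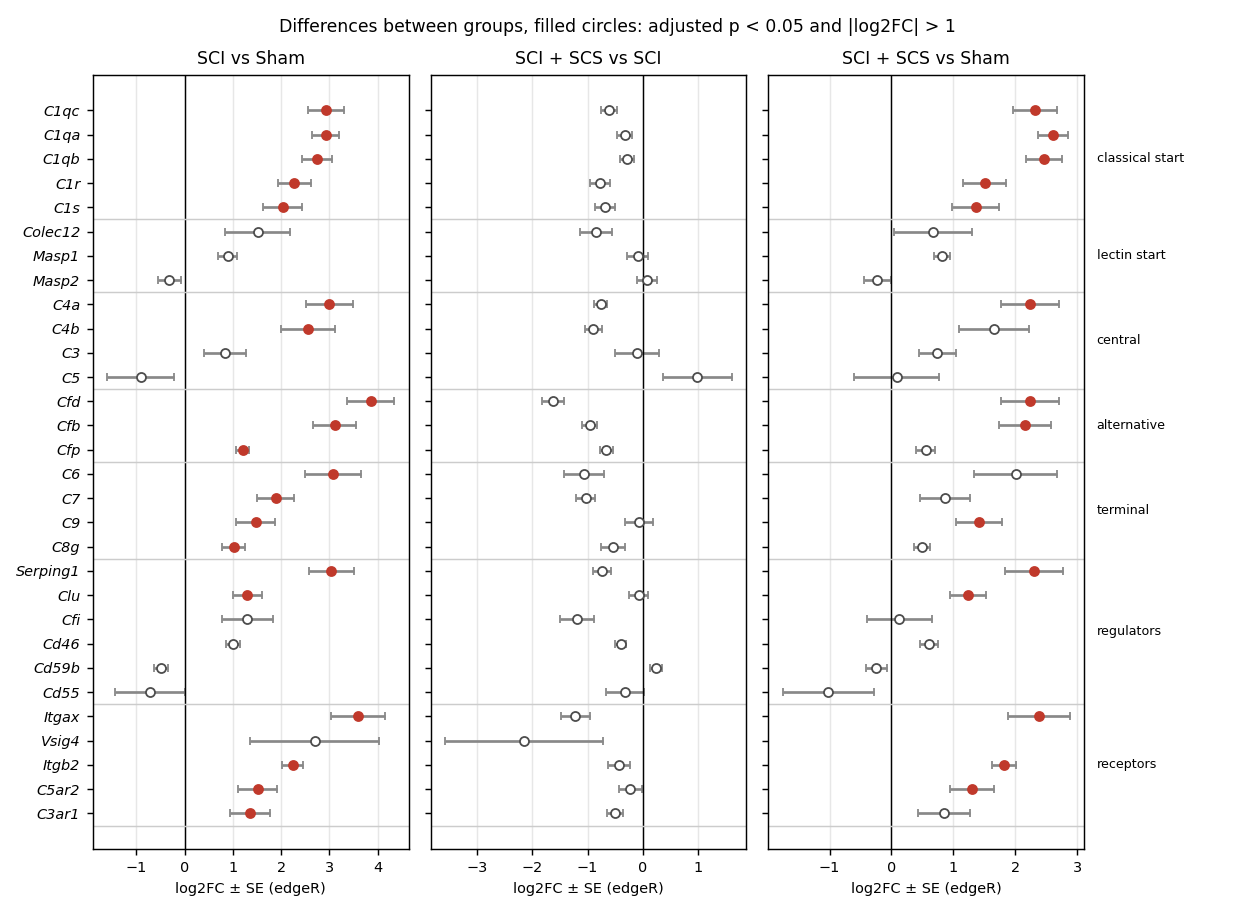
log2FC ± SE of the tested members in the 3 comparisons, grouped by role, with filled circles for genes called by edgeR. In the middle panel 27 of 30 genes lie below 0 and none is filled.

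The third comparison, SCI + SCS with Sham, shares its libraries with the other comparisons and is not independent of them. Here 14 of 29 members were called higher and 0 lower by edgeR, against 6.28% and 5.44% of all 17640 rows. The median log2FC of the members was 1.30, and in 21 members every SCI + SCS library was above every Sham library, against 27.2% of all rows. The classical starters were all called, with C1qa at log2FC 2.61 ± 0.25, C1qb at 2.47 ± 0.30, C1qc at 2.32 ± 0.35, C1r at 1.5 ± 0.35 and C1s at 1.36 ± 0.39. C4a, Cfb, Cfd, Serping1, Clu, C9, Itgax, Itgb2 and C5ar2 made up the rest, from 1.24 for Clu to 2.38 for Itgax. Of the genes called in SCI against Sham, C4b, C6, C7, C8g, Cfp and C3ar1 were not called here, with log2FC of 1.66, 2.01, 0.86, 0.49, 0.55 and 0.85. In all of these but C7 every SCI + SCS library was above every Sham library. C8g and Cfp missed only the fold threshold (edgeR adjusted p = 0.0316 and 0.0359). DESeq2 called 16 members higher, among them C4b and C6 (DESeq2 adjusted p = 0.00483 and 0.00437), and 1303 of the 17640 rows tested by edgeR. These values do not test a difference between the comparisons.

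This count depended on single libraries more than the first one did. It was 4 without Sham 2 and 4 without SCI + SCS 1, and the genes called in both cases were C1qa, C1qb, C1qc and Itgb2. It was 9 without SCI + SCS 2, 10 without SCI + SCS 3, 14 without Sham 1 and 20 without Sham 3. Genes that lost their call without Sham 2 kept a log2FC of 1.13 (C9) to 2.49 (Itgax), with edgeR adjusted p of 0.0577 to 0.122. The share of all rows called in these fits is not given here, so the change in count is not shown to be particular to the members.

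The Sham rats differed among themselves in these genes. Sham 1 was the lowest of the group for 25 of 30 members (41.1% of all 17800 rows with a mean of at least 10 counts) and Sham 3 the highest for 22 (39% of rows). In 19 of the 30 members (63.3%) Sham 3 was at least 2 times Sham 1, against 10.1% of rows. The ratio was 7.27 for Colec12, 5.65 for C6, 5.37 for C4b and 3.95 for C4a, but 1.98 for C1qa, 1.27 for Itgb2 and 1.2 for Masp1. The summed CPM of 5 fibroblast markers was 356, 1110 and 1790 in Sham 1 to 3, and that of 10 macrophage and shared myeloid markers was 198, 343 and 545. Both lists moved with the members in the Sham group, and they were not alone in this. From Sham 1 to 3 the astrocyte markers were at 3660, 6310 and 7150 CPM and the oligodendrocyte markers at 58200, 61500 and 81800 CPM. The microglia, Schwann cell, neutrophil, T cell, adipocyte and red cell lists rose in the same order. The neuron markers fell, at 2660, 1800 and 1560 CPM, and the endothelial, muscle, hepatocyte and B cell lists did not follow the order. The part of these cells in this spread was not tested.

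Across the groups, too, the members moved beside markers of other cells. The summed CPM of the members was 1850, 2360 and 3540 in Sham, 9040, 7830 and 8020 in SCI and 6700, 7200 and 5950 in SCI + SCS. Without Clu, the most abundant member, the sums were 829, 1100 and 1420, then 4790, 4580 and 4520, then 3330, 3090 and 3030. The macrophage and shared myeloid markers stood at 2930, 4050 and 3570 CPM in SCI and at 2100, 2300 and 2110 CPM in SCI + SCS. None of the 10 markers was at 0 throughout, 9 of 10 were called higher in SCI against Sham, and their median log2FC was -0.62 in SCI + SCS against SCI, with 0 of 10 called by edgeR and 7 of 10 lower at an unadjusted p under 0.05. DESeq2 called 1 of the 10 lower in that comparison. The fibroblast markers stood at 3210, 4640 and 4830 CPM in SCI and at 3360, 1960 and 2190 CPM in SCI + SCS, with a median log2FC of -0.70, and all 5 were called higher in SCI against Sham. The 8 microglia markers differed less, at 285 to 389 CPM in Sham, 491 to 606 CPM in SCI and 499 to 578 CPM in SCI + SCS, with 1 of 7 tested called in SCI against Sham and a median log2FC of 0.02 in SCI + SCS against SCI. T cell markers were at 0.692 to 1.25 CPM in Sham, 17.9 to 20.7 CPM in SCI and 7.11 to 13 CPM in SCI + SCS. Cd8a, at means of 0.273, 13.2 and 8.02 CPM, made up most of these sums in SCI and SCI + SCS. The median log2FC of the 5 T cell markers was -1.73 in SCI + SCS against SCI, where edgeR called 0 and DESeq2 3 of 5 lower. Astrocyte markers were at 3660 to 7150 CPM in Sham, 5820 to 9040 CPM in SCI and 8920 to 11700 CPM in SCI + SCS. Gfap, at means of 3770, 5870 and 8680 CPM, made up most of these sums. In SCI against Sham 4 of the 6 had a negative log2FC (median -0.55), and edgeR called 0 higher and 1, Slc1a2, lower. In SCI + SCS against SCI all 6 had a positive log2FC and 0 of 6 were called. The part of these cells in the levels of the members was not tested.

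**Figure D4:**
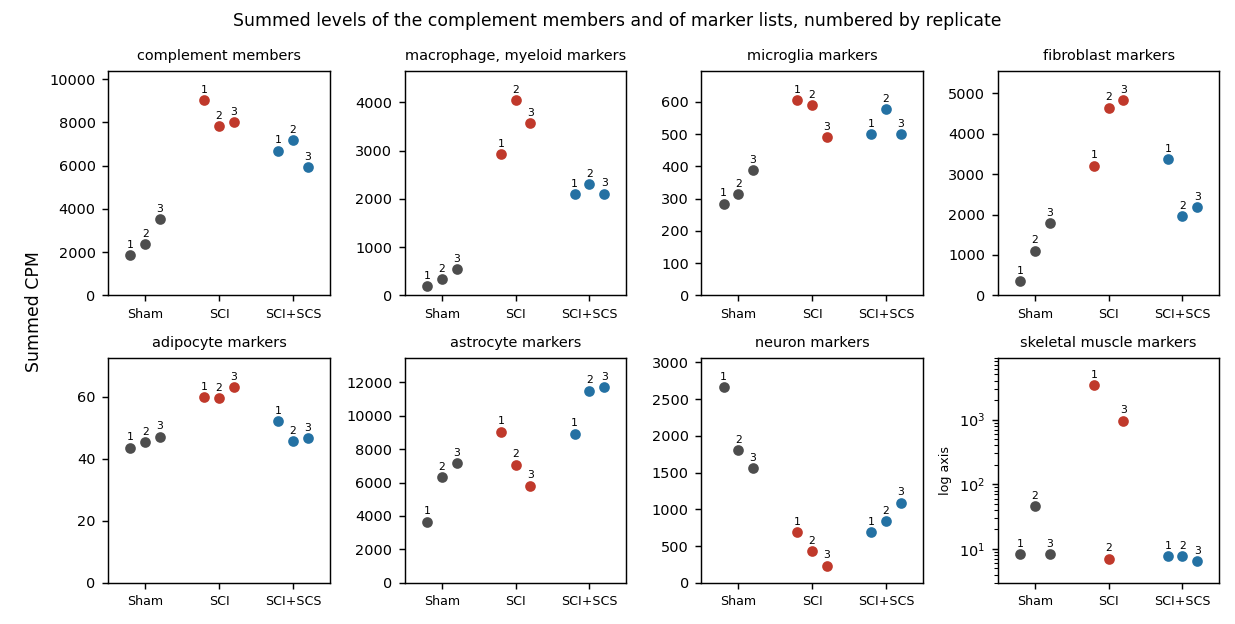
Summed CPM of the complement members and of 7 lists of cell type markers in each library, numbered by replicate (log axis for muscle only). Among the Sham libraries the members and all lists shown except the neuron markers are lowest in Sham 1, and muscle markers are high in SCI 1 and SCI 3 alone.

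A further list of 30 complement-related genes, among them pattern recognition molecules, fluid-phase regulators and neuronal proteins with complement-type domains, had 29 rows in the table. In SCI against Sham 23 of them were tested, and 6 were called higher and 10 lower, against 13.4% and 13.6% of all rows. The genes called higher included recognition molecules. Fcnb, a ficolin of myeloid cells that starts the lectin pathway, was at 0.126, 0.159 and 0.137 CPM in Sham and at 2.74, 2.74 and 1.29 CPM in SCI (log2FC 3.97 ± 0.42, edgeR adjusted p = 0.0015). Fcna, its relative, was at 2.44, 3.55 and 4.85 CPM against 22.3, 24.4 and 31.0 CPM (log2FC 2.82 ± 0.28). Ptx3, a long pentraxin that binds C1q, had a log2FC of 3.01 ± 0.28 and Srpx2, a sushi-domain protein that binds C1q, one of 2.46 ± 0.60. In the members' own list no lectin starter was called, and the ficolins were the lectin pathway genes called higher.

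The 10 genes called lower encode neuronal proteins, with log2FC from -3.72 to -1.07. Sez6l, of a neuronal family with sushi and CUB domains, was at 21.0, 19.0 and 12.7 CPM in Sham and at 1.26, 1.69 and 1.1 CPM in SCI (log2FC -3.72 ± 0.28, edgeR adjusted p = 0.00104). Its relative Sez6l2 had a log2FC of -2.07 ± 0.33. Csmd3, a large sushi-domain protein of neurons, had a log2FC of -2.89 ± 0.35, and Susd4, a membrane inhibitor of the C3-cleaving enzyme, one of -1.86 ± 0.32. The neuronal pentraxins Nptx1 and Nptx2, which bind C1q at synapses, had log2FC of -2.50 ± 0.31 and -2.18 ± 0.48. The 6 neuron markers fell beside them, at 1560 to 2660 CPM in Sham, 232 to 692 CPM in SCI and 690 to 1090 CPM in SCI + SCS, and their part was not tested. In SCI + SCS against SCI none of 24 genes was called by edgeR, while 10 were higher and 3 lower at an unadjusted p under 0.05 (13.3% and 10.9% of all rows) and DESeq2 called 4 higher (2.53% of its rows). Nptx1 was at 19.3, 18.6 and 13.3 CPM in SCI and at 31.2, 45.7 and 56.2 CPM in SCI + SCS (log2FC 1.39 ± 0.24, edgeR adjusted p = 0.0719). In SCI + SCS against Sham 4 of 23 genes were called higher and 4 lower, against 6.28% and 5.44% of all rows.

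**Figure D5:**
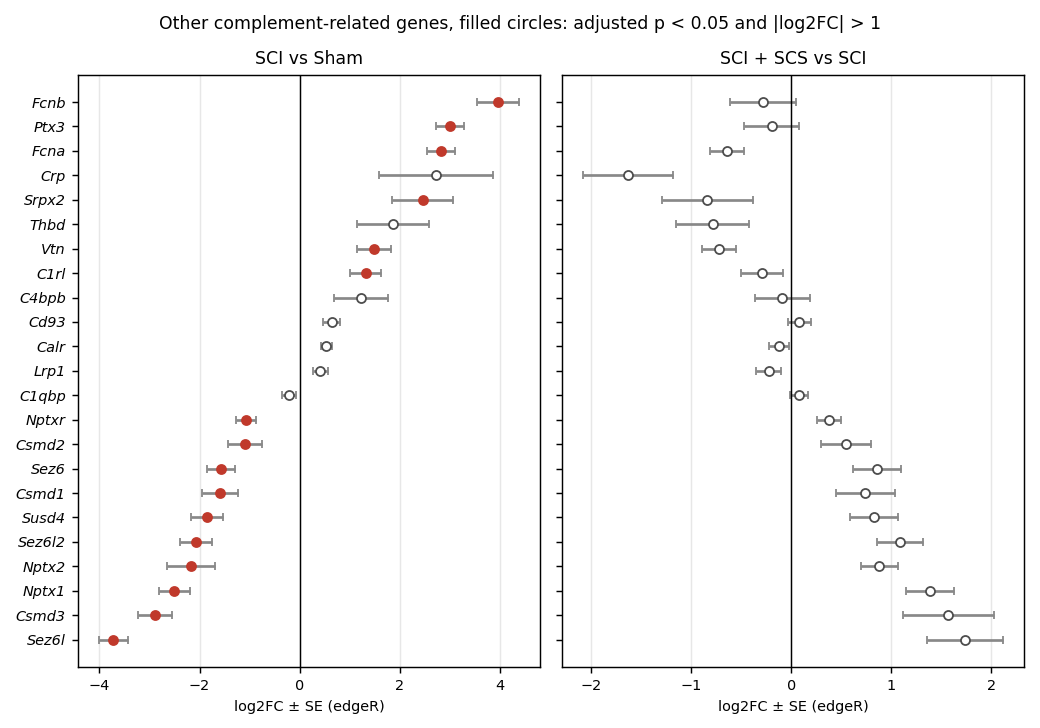
log2FC ± SE of the 23 other complement-related genes tested in SCI against Sham, beside SCI + SCS against SCI, with filled circles for genes called by edgeR. On the left 6 genes are filled above 0 and 10 below, and on the right none is filled.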

How the data were processed

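Per the study's methods, polyadenylated RNA was captured on oligo(dT) beads and sequenced as paired ends. The submitters' processing notes name fastp 0.23.2, HISAT2 2.2.1 and the build mRatBN7.2. The counting program and its strand setting are not given in the sources used here, so genes that overlap on opposite strands may share reads. The authors deposited raw counts per gene, without normalization, and FPKM, which divides counts by gene length and library total. Some identifiers (494, on 1081 rows) repeat, and their rows were not merged. Where a symbol was repeated, the row with the highest total was used.

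Libraries were grouped by the condition in the labels. Counts were tested by the quasi-likelihood method of edgeR 4.0.16 (R 4.3.3), with TMM scaling and filterByExpr, over the 6 libraries compared, with Benjamini-Hochberg adjustment over all rows tested. The SE is |log2FC| divided by the square root of F. DESeq2 1.42.0 and limma 3.58.1 on log2(FPKM + 1) or log2(FPKM + 0.1), for rows with a mean FPKM of at least 0.1, were alternatives, and fold changes on the FPKM scale understate those of low genes. The other alternatives were no filter or at least 10 counts in every library, a joint fit of all 9 libraries, edgeR with the size factors of DESeq2, a replicate block, muscle and adipocyte genes removed, rows of an identifier summed, no fold threshold, and leaving out each library. The tests were checked on simulated counts with the same dispersion for every gene. That check does not cover genes that spread as widely within a group as C4a did in Sham. With 3 rats against 3 an exact permutation test cannot give a p under 0.1.

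The members and lists were chosen with earlier results of these data known. All members are named. Of the other complement genes, at most 10 are named, the called genes without overlap between groups that had the highest |log2FC|. A related gene is not reported here.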

Additional observations from a re-analysis of the deposited data

How the results depend on the processing

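Of the counts of members called under the alternatives, 95 stayed within 1.5 times the reported count, 3 became larger and 4 smaller. Many of the 95 are a 0 that stayed 0, which says little about stability. The reported count was 0 for lower members in SCI against Sham and in SCI + SCS against Sham. It was also 0 in both directions in SCI + SCS against SCI. Without the fold threshold 1 member (Cd59b) was lower in SCI against Sham. In SCI + SCS against SCI, DESeq2 called 5 members lower, and leaving out each library in turn gave 0 to 3. Leaving out each library gave 4 to 20 members higher in SCI + SCS against Sham, and 17 to 22 in SCI against Sham. The replicate numbers were not used as pairs in the main fits. Deviations of same-numbered libraries correlated at -0.0554 to 0.243 in SCI against Sham, -0.205 to 0.002 in SCI + SCS against SCI and -0.329 to 0.022 in SCI + SCS against Sham. With 3 libraries per group these values cannot show whether same-numbered libraries were handled together. With the replicate block 22 members were higher in SCI against Sham, 0 were called in SCI + SCS against SCI and 4 were higher in SCI + SCS against Sham. The share of all rows called with the replicate block or with a library left out is not given beside these counts. Changes in them are thus not shown to be particular to the members.

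Of single genes, 1296 values kept their direction and call, 37 gained and 60 lost a call, and 20 changed sign, none of them a called value. In SCI + SCS against SCI the log2FC of C3 became 0.017 with the replicate block, 0.045 with log2(FPKM + 1) and 0.050 with log2(FPKM + 0.1), and that of Masp1 became 0.018 and 0.021 on these scales. Leaving out single libraries moved the log2FC across 0 in this comparison for C3 (-0.44 to 0.34), C5ar2 (-0.41 to 0.029), Cd55 (-0.61 to 0.021), Clu (-0.21 to 0.031) and Masp1 (-0.28 to 0.0089). It did so for Cd55 in SCI against Sham (-1.17 to 0.52), and in SCI + SCS against Sham for C5 (-0.51 to 0.81), Cd55 (-1.48 to 0.21) and Cfi (-0.28 to 0.48). The cause was not tested. C8a, C8b, Cr2, C5 and Vsig4 had few or no counts, and whether the depth or a lack of transcript was the reason was not tested.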
